A study of Homo sapiens with 6 samples.

Results

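The NF-kB family in K562 cells was described through 20 probe sets, out of 54675 on the array. They were all those whose platform gene symbol is, alone, 1 of 10 chosen genes: the subunits NFKB1, NFKB2, REL, RELA and RELB, the inhibitors NFKBIA, NFKBIB and NFKBIE, and the nuclear relatives NFKBIZ and BCL3. A probe set is a group of short oligonucleotides on an Affymetrix array that together give 1 signal for a transcript. The 20 probe sets represent 9 genes of 19775 in the table, because both probe sets of BCL3 also carry the symbol MIR8085 and are given apart. K562 is an established line from human chronic myeloid leukaemia. One group was K562 exposed for 12 h to calactin, a plant steroid of the cardenolide type, with a labelled dose of 0.15 mM. The other was untreated K562 at the same time point. Each group had 3 arrays that the labels call biological replicates, and no vehicle for the drug or control is named. All cells were of this single line, which carries the BCR-ABL1 fusion.

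With calactin the family moved in both directions. REL rose on 4 of its 5 probe sets, by up to 2.45-fold, and NFKBIB rose on 1 of 3. NFKBIE fell 2.84-fold, NFKB2 fell on 2 of 3 probe sets and NFKBIZ fell on 1 of 2. No probe set of NFKB1, RELA, RELB or NFKBIA passed the test in the main fit, which did not pair arrays by replicate number. With that number as a block on the deposited scale, NFKB1 209239_at and NFKBIA 201502_s_at were called. Folds and log2 changes here are calactin over untreated on the scale of log2(intensity + 16), which understates the change of dim probe sets. In bulk RNA, fewer cells with a transcript and less of it per cell cannot be told apart. Passing means an adjusted p below 0.05 in limma's two-sided moderated test, adjusted by the Benjamini-Hochberg method over 54613 probe sets.

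NF-kB is a family of dimeric transcription factors that switch on genes of inflammation, immune defence and cell survival. All 5 subunits share the Rel homology domain, with which they pair and bind kappa-B sites in DNA. RELA, REL and RELB carry activation domains, whereas NFKB1 and NFKB2 encode long precursors whose processed forms, p50 and p52, lack one. In resting cells the IkB inhibitors hold dimers in the cytoplasm through ankyrin repeats. Signals activate the IKK kinases, which mark the IkB proteins for ubiquitination and destruction by the proteasome, and the freed dimers enter the nucleus. NFKBIZ and BCL3 are IkB relatives that act in the nucleus on p50 or p52. Several family genes are themselves targets of NF-kB, and the inhibitor gene NFKBIA is the textbook case of negative feedback.

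Median array signals were 31.2 to 32.1 units with calactin and 33.1 to 34.4 without, so every calactin array lay below every untreated one. The part of this gap in any small difference was not tested beyond the scalings given below. Poly-A control spikes, added to RNA before labelling, set replicate 3 of both groups apart, by -2.75 and -2.28 from the mean of all arrays on the log2 scale, while the other 4 arrays lay at 0.75 to 1.86. Counts are therefore also given without replicate 3 of either group. Of 10 K562 markers, the 9 measured alone on a probe set all lay above the median signal of the table, among them the embryonic globin genes HBE1 and HBZ at the 99.8th and 99.7th percentile. With calactin 4 of the 9 were called lower, LMO2 at -1.69, GATA1 at -0.86, TFRC at -0.55 and NFE2 at -0.50. TAL1 was called higher at 0.92. Hybridisation spike scaling gave 2 lower and 1 higher of the 9, and poly-A spike scaling with the replicate block 1 lower and 5 higher. With probe sets of unshared sequence preferred, 3 were lower and 0 higher. Among all genes, at 1 probe set each, 16.6% were called lower and 4.98% higher. Summed T cell markers ran from 1766 to 1951 with calactin and 2254 to 2669 without. Most of that signal was CD3D, and 3 of 6 T cell markers lay above the median signal. On the deposited scale CD3D, at -0.45, was the only 1 of the 6 called, and their median log2 change was 0.094. Under hybridisation spike scaling 0 were called. Summed monocyte and neutrophil markers ran from 740.5 to 870.0 with calactin and 895 to 950.1 without, also with no overlap. Most of that signal was LYZ, 0 of these 6 were called, and their median log2 change was 0.099. Markers above the median signal numbered 3 of 5 for B cell, 2 of 6 for monocyte and neutrophil and 4 of 6 for fibroblast markers. The part of these markers in the results below was not tested. Probe sets with sequence shared between transcripts carry the endings _s_at or _x_at.

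Promoter sequences were examined because feedback through kappa-B sites is how several of these genes are known to be controlled. RefSeq windows of 300 bases, from 250 before to 50 after an annotated start (GRCh38.p14), were at hand for 8 of the 10 genes, and NFKBIE and RELB had none in the table used. The kappa-B consensus was searched on both strands, as a G triplet, a purine, any pair of bases, a pair of pyrimidines and a pair of C. It was present in 9 of 14 windows of the family (64.3%) and in 11.3% of 35116 windows of all genes. By gene it was present in 7 of 8 (87.5%), against 13.3% of 27305 genes with a window. RELA had no match in either of its windows, which says only that these letters are not there. A match is a description of letters and not a measured binding site. The promoters below belong to REL, which rose, to NFKB2, which fell on its brighter probe sets, and to NFKBIA, the feedback gene. Matches are in capitals, and neighbouring matches that overlap run together.

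REL, chr2:60881324-60881623, plus strand: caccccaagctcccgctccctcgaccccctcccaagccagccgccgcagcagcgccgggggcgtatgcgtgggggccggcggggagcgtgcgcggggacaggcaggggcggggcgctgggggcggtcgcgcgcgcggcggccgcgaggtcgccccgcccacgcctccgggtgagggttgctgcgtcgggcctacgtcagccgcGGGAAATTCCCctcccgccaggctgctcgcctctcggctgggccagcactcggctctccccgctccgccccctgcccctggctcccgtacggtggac
NFKB2, 2nd annotated start, chr10:102394328-102394627, plus strand: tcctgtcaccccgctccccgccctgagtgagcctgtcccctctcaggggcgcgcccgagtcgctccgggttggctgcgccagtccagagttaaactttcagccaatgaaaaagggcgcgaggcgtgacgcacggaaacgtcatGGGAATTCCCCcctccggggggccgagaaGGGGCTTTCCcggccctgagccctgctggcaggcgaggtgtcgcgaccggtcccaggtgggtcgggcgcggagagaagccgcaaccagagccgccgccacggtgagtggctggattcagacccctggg
NFKBIA, chr14:35404700-35404999, minus strand: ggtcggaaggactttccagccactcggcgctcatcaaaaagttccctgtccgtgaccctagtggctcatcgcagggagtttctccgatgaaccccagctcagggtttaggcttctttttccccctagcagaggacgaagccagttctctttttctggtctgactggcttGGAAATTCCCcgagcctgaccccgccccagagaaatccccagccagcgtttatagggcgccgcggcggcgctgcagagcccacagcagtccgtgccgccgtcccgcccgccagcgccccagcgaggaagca

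In REL, matches to both strands overlap at 47 and 46 bases before the start. NFKB2 has an overlapping pair at 107 and 106 bases before its 2nd start and a further match at 78 bases. The single match of NFKBIA begins 81 bases before the start. A choice of 5 matches from other family genes follows with 10 bases on each side, for comparison of the core letters. They begin 49 (NFKB1), 28 (NFKBIB), 223 and 239 (NFKBIZ) bases before a start and 2 bases after it (BCL3). Not printed are an overlapping NFKBIB match at 27 bases before and another at 38 bases after that start, and NFKB2 matches at 176 and 21 bases before its 3rd start.

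NFKB1, 1st start, chr4:102501300-102501329: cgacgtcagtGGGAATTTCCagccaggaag
NFKBIB, 2nd start, chr19:38899931-38899960: gggcgtggtgGGGAATTTCCcgcagggcgg
NFKBIZ, 1st start, chr3:101827757-101827786: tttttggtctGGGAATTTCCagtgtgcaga
NFKBIZ, 2nd start, chr3:101849265-101849294: gcgcgctgtcGGGGTTTCCCggtgaagggc
BCL3, chr19:44748700-44748729: ccggctgcagGGGAAGTCCCggcgcccggc

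NFKB1, NFKBIB and the 1st start of NFKBIZ share the same 10 letters, GGGAATTTCC. Matches were thus present beside genes with a probe set called higher (REL, NFKBIB), beside genes with one called lower (NFKB2, NFKBIZ) and beside genes with none called (NFKB1, NFKBIA).

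**Figure D1:**
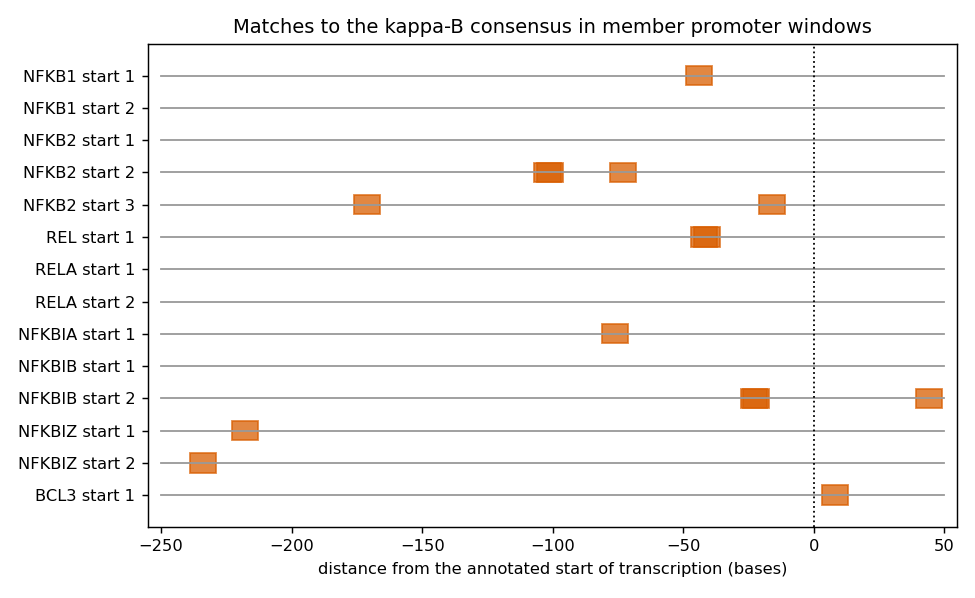
Each line is a promoter window of a family gene, from 250 bases before to 50 after an annotated start of transcription (dotted line, distance in bases on the x axis), and each box is a match of 10 bases to the kappa-B consensus on either strand. Matches lie in 9 of 14 windows, and both RELA windows are empty.

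Among the transactivating subunits, REL stood out in its signals. REL encodes c-Rel, a subunit best known from lymphocytes. Its brightest probe set, 235242_at, read 724, 732 and 747 intensity units in calactin replicates 1, 2 and 3, and 273, 307 and 292 in untreated replicates 1, 2 and 3. All calactin arrays lay above all untreated arrays, and the groups were far apart compared with their spread. The mean was 735 ± 12.0 with calactin and 290.5 ± 17.3 without (SD, n = 3 each), a log2 change of 1.29 ± 0.09 (SE, limma adjusted p = 1.54e-04). This was the 112th smallest p of the whole table.

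REL 206036_s_at read 315, 336 and 356 with calactin and 118, 142 and 135 without, a rise of 1.25 ± 0.12 (limma adjusted p = 3.47e-04). REL 228812_at read 348, 311 and 388 against 125, 168 and 173, a rise of 1.10 ± 0.15 (limma adjusted p = 0.00175). REL 239486_at read 114, 107 and 96.2 against 49.5, 49.4 and 57.8, a rise of 0.83 ± 0.15 (limma adjusted p = 0.00650). On each of these the calactin arrays were all above the untreated ones. The 5th probe set, 206035_at, was very dim, at 12.9, 6.83 and 9.16 against 6.44, 5.49 and 3.85, at the 18.4th percentile of mean signal. Its calactin arrays also lay above the others, but it did not pass (0.27 ± 0.14, limma adjusted p = 0.321). All 4 called REL probe sets kept their call with any 1 array left out and under every scaling run. In replicates 1 and 2 alone, 235242_at and 206036_s_at were called (limma adjusted p = 0.0304 and 0.0366), and 228812_at and 239486_at were not (0.0567 and 0.0721).

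RELA encodes p65, the subunit of the classical p50-p65 dimer. Its brighter probe set, 201783_s_at, read 1122, 1277 and 1107 with calactin and 1242, 1217 and 1221 without, so the groups overlapped. The log2 change was -0.07 ± 0.08 with a 95% interval from -0.26 to 0.12 (limma adjusted p = 0.694). Poly-A spike scaling with the replicate block turned it to 0.51, which was called (limma adjusted p = 0.0215). RELA 209878_s_at read 281, 458 and 241 against 375, 348 and 241, with overlap and a wider interval of -0.56 to 0.55.

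RELB is the partner of p52 in the alternative pathway. Its single probe set, 205205_at, read 20.9, 34.1 and 16.2 with calactin and 25.1, 12.5 and 31.95 without. Groups overlapped at this low signal, and the 95% interval of the change ran from -0.56 to 0.62.

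Of the precursor subunits, NFKB2 fell on its brighter probe sets and NFKB1 did not pass. NFKB2 encodes p100, which is processed to p52 and in its full length also acts as an inhibitor. NFKB2 207535_s_at read 431, 295 and 353 with calactin and 716, 510 and 671 without, and all calactin arrays were below all untreated ones. It fell by 0.79 ± 0.17 (log2, limma adjusted p = 0.0144). NFKB2 209636_at read 25.1, 14.0 and 16.7 against 97.5, 75.5 and 53.4 and fell by 1.39 ± 0.23 (limma adjusted p = 0.00477), again with no overlap. The dimmest, 211524_at, read 41.0, 24.6 and 21.3 against 20.5, 13.5 and 25.1, with overlap and a change of 0.32 ± 0.23 (limma adjusted p = 0.471).

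The call of NFKB2 207535_s_at was lost without calactin replicate 2 (limma adjusted p = 0.0611) or 3 (0.0634) and without untreated replicate 1 (0.0623) or 3 (0.0776). It was also lost in replicates 1 and 2 alone (0.215), under quantile normalization (-0.61, 0.0683), hybridisation spike scaling (-0.68, 0.0735) and poly-A spike scaling with the replicate block (-0.21, 0.217). NFKB2 209636_at was called in 16 of 17 alternatives and missed the threshold in replicates 1 and 2 alone (0.0585).

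NFKB1 encodes p105, the precursor of p50. NFKB1 209239_at read 340, 348 and 421 with calactin and 292, 253 and 286 without, so its arrays did not overlap. The change of 0.39 ± 0.12 had a 95% interval of 0.12 to 0.66, with a limma adjusted p of 0.0669. It was called with the replicate number as a block (0.0273), under quantile normalization (0.59, 0.0133), median centring (0.0391) and poly-A spike scaling with that block (0.93, 0.00209), and among probe sets above the median signal alone (0.038). Its sign was positive in all 18 alternatives.

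**Figure D2:**
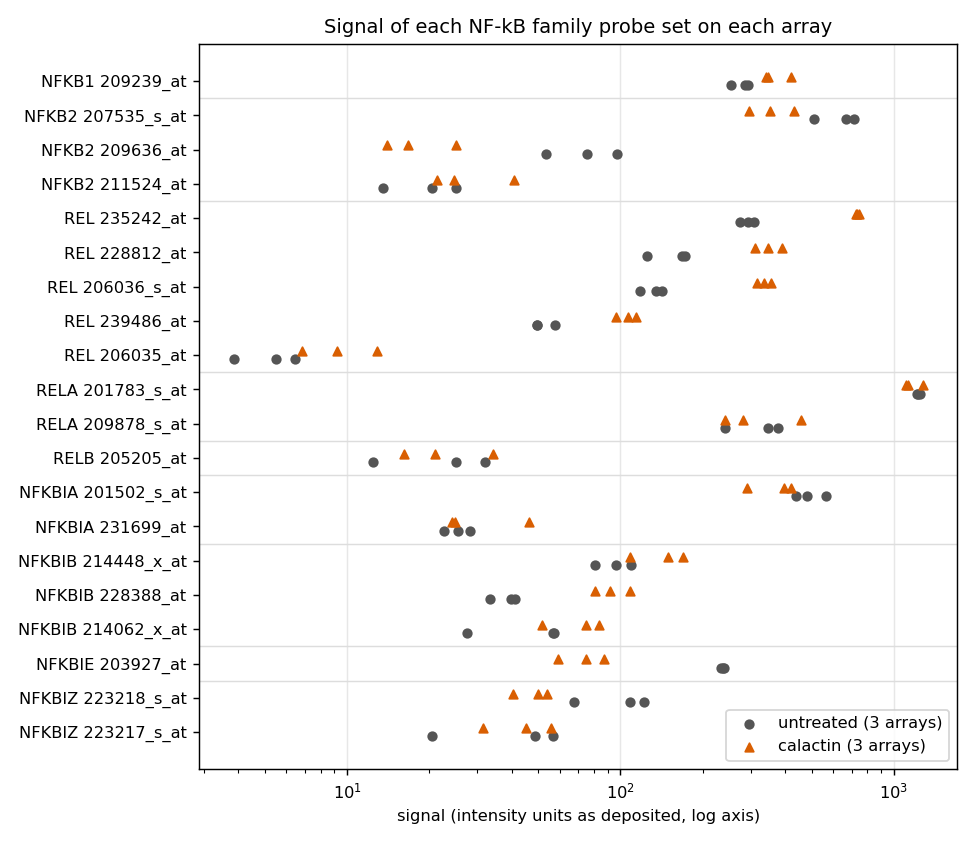
Deposited signal (x axis, intensity units on a log axis) of the 20 probe sets on each of 3 calactin arrays (triangles) and 3 untreated arrays (circles). Levels of different probe sets are not comparable, so the picture is read along each line. The calactin points of the 4 brighter REL lines lie to the right of the untreated points, and those of NFKBIE to the left.

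The cytoplasmic inhibitors did not move as a set. NFKBIE, which encodes IkB-epsilon, gave the lowest change of the family. NFKBIE 203927_at read 74.6, 87.1 and 59.2 with calactin and 240.0, 233 and 238 without. All calactin arrays were below all untreated arrays, whose own spread was small (237 ± 3.64, SD). It fell by 1.51 ± 0.15 (log2, 95% interval -1.84 to -1.17, limma adjusted p = 4.15e-04) and was called in 18 of 18 alternatives, where the change ran from -1.69 to -0.96.

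NFKBIB, which encodes IkB-beta, rose on 1 probe set. NFKBIB 228388_at read 91.7, 80.4 and 109 with calactin and 33.4, 41.3 and 39.9 without, with no overlap, and rose by 1.01 ± 0.17 (limma adjusted p = 0.00477). Its call was lost in replicates 1 and 2 alone (0.0964). The other two probe sets both end in _x_at. NFKBIB 214448_x_at read 169, 149 and 108 against 109, 80.5 and 96.6, and 214062_x_at read 83.3, 51.5 and 74.99 against 57.1, 27.5 and 56.7. Both overlapped between groups and had changes of 0.49 ± 0.18 and 0.47 ± 0.26 (limma adjusted p = 0.136 and 0.329). Both were called under poly-A spike scaling with the replicate block, at 0.91 and 0.78, and 214448_x_at also among probe sets above the median signal alone (0.0462).

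NFKBIA encodes IkB-alpha, the inhibitor resynthesised fastest after NF-kB activation. NFKBIA 201502_s_at read 290.1, 421 and 395 with calactin and 438, 566 and 483 without. All calactin arrays lay below all untreated ones, by a narrow gap between 421 and 438. The change of -0.42 ± 0.16 missed the threshold (limma adjusted p = 0.132) and was called only with the replicate number as a block (0.0132), while poly-A spike scaling with that block turned it to 0.16, which was not called. NFKBIA 231699_at was dim, at 24.9, 46.4 and 24.2 against 25.5, 22.6 and 28.2, and its groups overlapped.

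Of the nuclear IkB genes, NFKBIZ fell on 1 of its 2 probe sets. It encodes IkB-zeta, an inducible cofactor needed for some secondary NF-kB targets. NFKBIZ 223218_s_at read 54.0, 50.04 and 40.3 with calactin and 108, 67.9 and 122 without, with no overlap, and fell by 0.82 ± 0.22 (limma adjusted p = 0.0375). This call was the weakest of the family and held in 9 of 18 alternatives. Leaving out calactin replicate 1 (0.0793), 2 (0.103) or 3 (0.137) ended it, as did leaving out untreated replicate 1 (0.130) or 3 (0.150). Quantile normalization (0.0612), hybridisation spike scaling (0.137), poly-A spike scaling with the replicate block (0.297) and replicates 1 and 2 alone (0.336) ended it too. NFKBIZ 223217_s_at read 45.0, 56.0 and 31.4 against 56.7, 20.4 and 48.6, with overlap and a change of 0.09 ± 0.29.

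BCL3 encodes a partner of p50 and p52 that can act as a coactivator. Both of its probe sets also carry MIR8085, so the signal cannot be given to 1 of these genes, and they are in no count. The brighter, 204908_s_at, read 16.8, 16.6 and 14.95 with calactin and 46.5, 64.4 and 42.2 without, a change of -1.05 ± 0.19 (limma adjusted p = 0.00674, 0.0721 under poly-A spike scaling with the replicate block and 0.0835 in replicates 1 and 2 alone). The other, 204907_s_at, was at 10.3, 3.33 and 2.50 against 11.0, 12.7 and 4.42, with overlap.

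**Figure D3:**
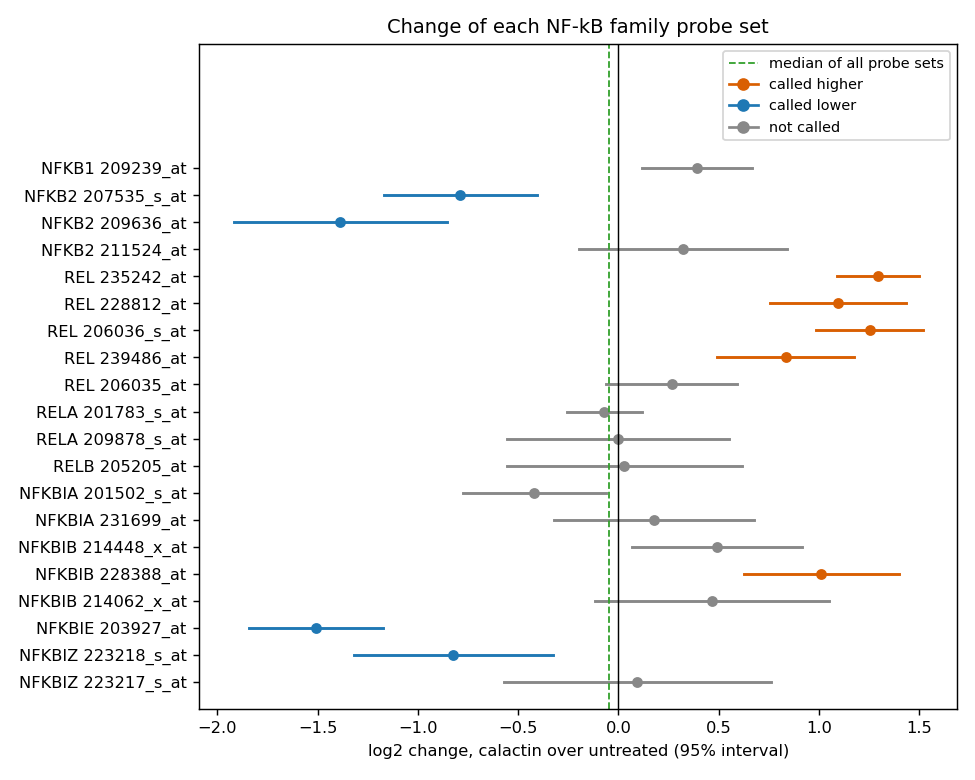
Log2 change of the 20 probe sets (x axis, calactin over untreated; point and 95% interval from limma, 3 arrays a group), coloured by whether the probe set was called higher, called lower or not called, with a dashed line at the median of all probe sets (-0.05). The 4 REL intervals called higher start at 0.49 or above, NFKBIE ends at -1.17, and both RELA intervals include 0.

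Counted over the family, 5 of 20 probe sets rose, 4 fell and 11 did not pass. Over all 54613 probe sets tested, 3.68% were called higher and 10.3% lower, 13.9% in all. Family probe sets were also brighter than most, with 16 of 20 above the median signal. Above that median 6.99% of probe sets were called higher and 19.3% lower. The groups did not overlap for 12 of the 20, 7 with calactin above and 5 below. For all probe sets this share was 28.4%, with 9.36% above and 19.0% below. The median change was 0.22 for the family and -0.05 for all probe sets. REL with 5 probe sets and NFKBIB with 3, all of positive change, weigh on that family median. At the brightest probe set of each gene the middle change was that of RELA, -0.07, against a median of -0.06 for all genes. Members of a gene share their transcript, so the 4 REL calls are not 4 independent observations. With only the brightest probe set of each gene, 1 gene was called higher (REL) and 3 lower (NFKB2, NFKBIE and NFKBIZ), against 4.98% and 16.6% of 19775 genes.

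The count of 5 higher held with any 1 array left out. The count of 4 lower became 2 on leaving out calactin replicate 2 or 3, or untreated replicate 1 or 3, and 3 on leaving out calactin replicate 1. It also became 2 under quantile normalization and hybridisation spike scaling. In replicates 1 and 2 alone, 2 REL probe sets were called higher and NFKBIE lower. With the replicate number as a block, 6 were called higher and 5 lower. Poly-A spike scaling with that block gave 9 higher and 2 lower in the family, and moved the median of all probe sets from -0.05 to 0.27. Lower calls made up 73.6% of all calls in the table as deposited, 54.7% after quantile normalization and 10.4% after poly-A spike scaling with the block.

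**Figure D4:**
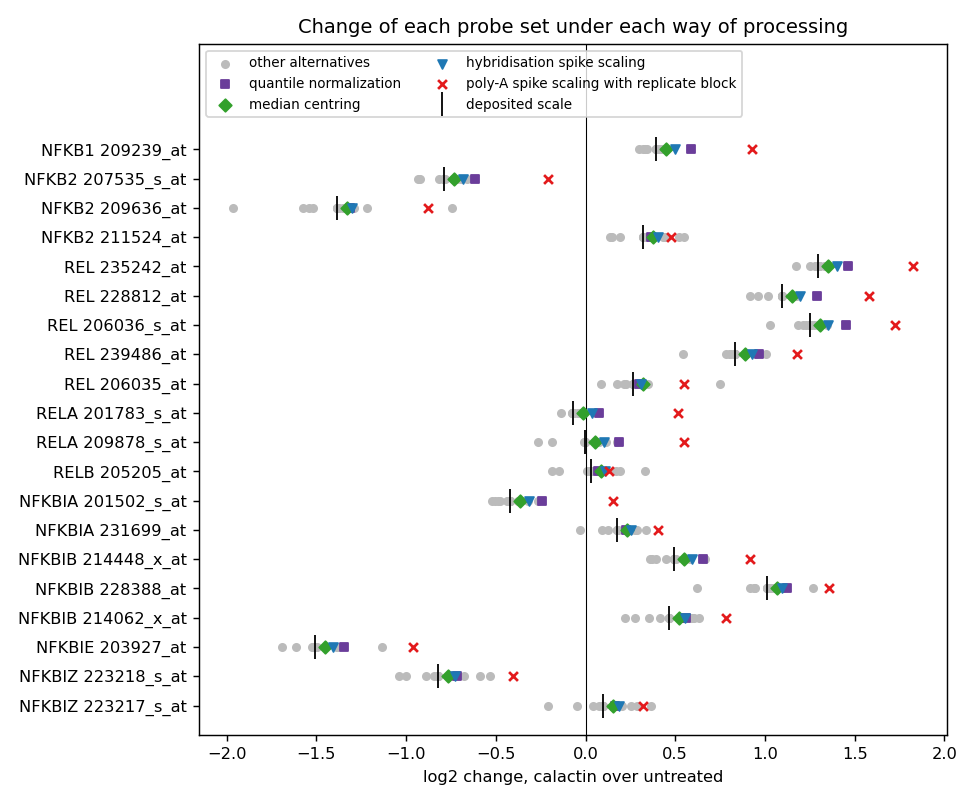
Log2 change of each probe set (x axis) on the deposited scale (black bar), under 4 other scalings (coloured marks) and under the remaining alternatives (grey). REL and NFKBIE stay on their side of 0 throughout, and poly-A spike scaling shifts the whole family to the right.

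Probe sets of the same gene were compared within arrays, as the difference between each further probe set and the gene's brightest. Of 11 such pairs in 6 genes, 3 moved unequally, and 6.34% of 21316 pairs in the table did. For REL, the fitted difference of 206035_at from 235242_at was -1.03 ± 0.16 on the log2 scale (limma adjusted p = 0.0176), but -0.59 (0.464) with a pseudocount of 1, so at the dim signal of 206035_at its size follows the pseudocount. NFKB2 211524_at changed by 1.11 ± 0.17 more than 207535_s_at (limma adjusted p = 0.0156, and 0.0503 with the replicate block). NFKBIZ 223217_s_at changed by 0.92 ± 0.17 more than 223218_s_at (limma adjusted p = 0.0293, and 0.0734 with the block). With a pseudocount of 1 none of the 3 was called, and 4 pairs were with a pseudocount of 64, so the count rests on how dim signals are treated. Poly-A spike scaling with the replicate block also left 0 called, with the NFKB2 difference at 0.69, the NFKBIZ difference at 0.72 and the REL difference at -1.28 (limma adjusted p = 0.138, 0.136 and 0.133). Leaving out calactin replicate 2, or untreated replicate 1 or 3, brought it to 0. It was 1 without calactin replicate 1 or 3, and 2 without untreated replicate 2.

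The rest of the pathway was read from fixed lists, with 1 probe set per gene, the brightest, and p-values adjusted over 19775 genes. Of 133 measured genes in 6 lists, 9 were called higher and 34 lower, against 4.98% and 16.6% of all genes. Of the 133, 101 lay above the median signal, and of all 19775 genes 12548 did. In the probe set fit, 19.3% of probe sets above that median were called lower, against 10.3% of all probe sets. The gene fit called a larger share lower, 16.6% of all genes, and its share among brighter genes was not computed. The 34 of 133 are therefore not set against genes of like brightness. The count of 34 lower was 21 under hybridisation spike scaling and 16 under poly-A spike scaling with the replicate block, where 49 were higher. List medians ran from -0.16 to -0.09 with all genes at -0.06, and under poly-A spike scaling with the block all 6 medians were above 0, from 0.13 to 0.50. Quantile normalization put the kinase and nuclear partner medians at 0.008 and 0.01, and hybridisation spike scaling put the latter at 0.02. In replicates 1 and 2 alone, 5 were higher and 20 lower. The lists were chosen with earlier results of these arrays known, so they give no independent evidence of a direction.

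Ligands and receptors come first in the pathway. Each list count below on the deposited scale stands against 16.6% of all genes called lower and 4.98% higher. Of 11 ligand genes, 2 fell and 0 rose, and 5 of them lay above the median signal. In replicates 1 and 2 alone, 0 fell. IL18, a cytokine of the interleukin-1 family, fell by 1.23 ± 0.20, and TNFSF13B, the B cell factor BAFF, by 0.68 ± 0.15. TNFSF13B was called in 15 of 19 alternatives and was at -0.12 under poly-A spike scaling with the replicate block (limma adjusted p = 0.416). Of 35 receptor and adaptor genes, 10 fell and 1 rose, whereas poly-A spike scaling with the replicate block gave 5 lower and 10 higher. TRAF3IP2, the adaptor of interleukin-17 receptors, fell by 1.70 ± 0.14, though its probe set of unshared sequence was at 0.37 and not called. TICAM1, the adaptor TRIF of TLR3 and TLR4, fell by 1.66 ± 0.18, from 198, 155 and 231 to 45.4, 58.3 and 47.0. MYD88, the adaptor of most Toll-like and interleukin-1 receptors, fell by 1.06 ± 0.12. IL1R1, the interleukin-1 receptor itself, rose by 1.43 ± 0.16, from 61.2, 85.8 and 85.3 to 207, 244 and 252.

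In the kinase list, 5 of 16 genes fell and 0 rose on the deposited scale. Hybridisation spike scaling left 1 lower, and poly-A spike scaling with the replicate block turned the balance to 9 higher and 1 lower. IKBKB, the catalytic subunit IKK-beta that marks IkB-alpha for destruction, fell by 1.16 ± 0.13, from 216, 256 and 233 in untreated replicates 1 to 3 to 90.9, 102 and 95.7. MAP3K7, the kinase TAK1 that activates IKK, fell by 0.44 ± 0.10 and was at 0.14 under poly-A spike scaling with the block. TAB3, a partner of TAK1, fell by 0.54 ± 0.11 and was at 0.05 there. AZI2, an adaptor of the related kinase TBK1, fell by 0.69 ± 0.12 and was at -0.10 there, not called (limma adjusted p = 0.404). MAP3K7, TAB3 and AZI2 were not called under hybridisation spike scaling either (0.362, 0.221 and 0.0504). Of 22 genes of the ubiquitin steps, 5 fell and 2 rose, against 2 and 2 under hybridisation spike scaling and 2 lower with 11 higher under poly-A spike scaling with the block. RBCK1, a subunit of the linear ubiquitin ligase, fell by 0.91 ± 0.11 and TRAF5, a receptor-bound ligase family member, by 1.48 ± 0.24. TNFAIP3, the enzyme A20 that edits ubiquitin and restrains NF-kB, rose by 0.92 ± 0.12. ITCH, a ligase that works with A20, rose by 0.71 ± 0.09, but a probe set of unshared sequence was called lower, at -1.23, and the mean of its probe sets was at 0.06 and not called.

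Of 18 nuclear partners, 3 rose and 2 fell, and 11 rose and 0 fell under poly-A spike scaling with the block. The acetyltransferase gene CREBBP rose by 0.88 ± 0.12 and KAT5, another acetyltransferase, by 0.34 ± 0.09. KAT5 was called in 13 of 19 alternatives, and its call was lost on leaving out calactin replicate 2 (limma adjusted p = 0.0837) or 3 (0.0941) or untreated replicate 3 (0.0799). NKRF, a repressor of some NF-kB promoters, fell by 0.88 ± 0.12, and PRMT5, an arginine methyltransferase, by 0.51 ± 0.06. Under poly-A spike scaling with the block neither was called, with NKRF at -0.30 and PRMT5 at 0.08, and PRMT5 was not called under hybridisation spike scaling (limma adjusted p = 0.282). Of 33 textbook target genes, 10 fell and 4 rose. The 10 became 6 without calactin replicate 2 or 3, and poly-A spike scaling with the block gave 7 lower and 9 higher. With probe sets of unshared sequence preferred, 7 were lower and 3 higher. CXCL8, CXCL2 and CXCL3, which encode chemokines for neutrophils, had changes of -3.66 ± 0.25, -3.30 ± 0.25 and -2.70 ± 0.19, all called lower. The CXCL2 probe set of unshared sequence was at -0.68 and not called. CCND1, the G1 cyclin D1, fell by 2.40 ± 0.17, from 103, 99.7 and 96.6 to 10.2, 4.09 and 4.25. TNFAIP3 is counted in this list too. The rises not yet named, chosen here after their values were seen, were IL6, the cytokine interleukin-6, at 1.31 ± 0.16, CCL4, a chemokine, at 0.95 ± 0.17, and XIAP, an inhibitor of caspases, at 0.83 ± 0.19. XIAP was no longer called on leaving out calactin replicate 2 or 3 or untreated replicate 1 or 3, nor with its probe set of unshared sequence, at 0.17, and neither XIAP nor CCL4 was called in replicates 1 and 2 alone. CCL4 was dim, at 25.2, 20.5 and 25.0 with calactin and 2.00, 8.44 and 3.22 without. Its mean signal was at the 32.4th percentile, below the median of the table. Adjusted p-values of all these called genes, from limma over all genes, were 0.0242 or lower.

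**Figure D5:**
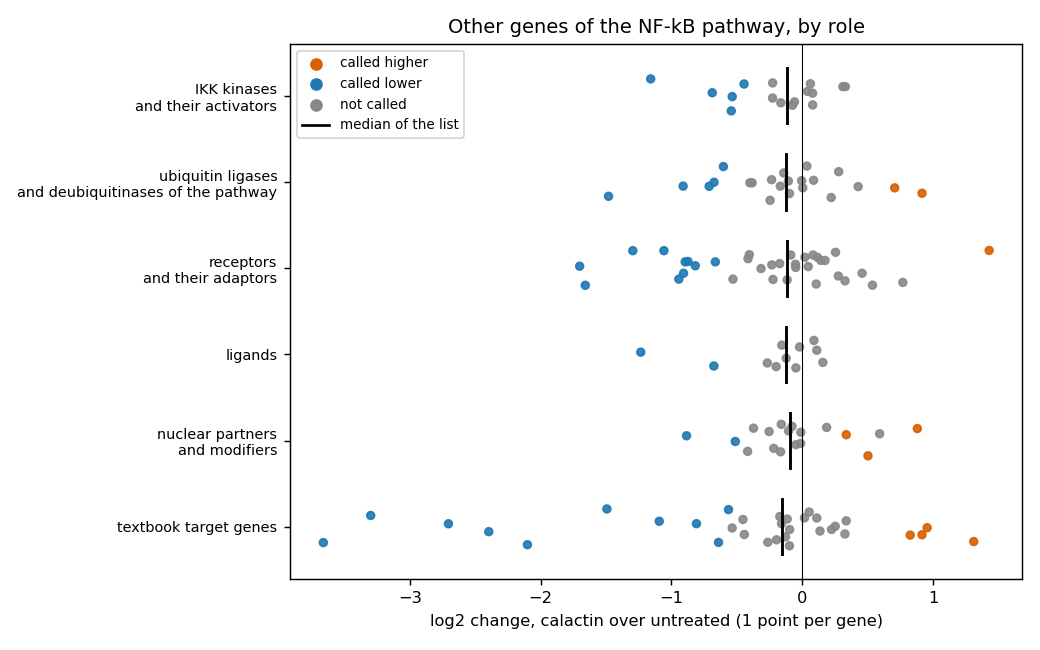
Log2 change (x axis, calactin over untreated) of each measured gene in 6 lists of the NF-kB pathway, 1 point per gene at its brightest probe set, with a black bar at the list median. Points called lower outnumber those called higher in every list except the nuclear partners, and most points are not called.

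The pattern of REL 235242_at over the 6 arrays was matched most closely, among 9886 genes above the median signal, by ORMDL1, ADI1, NEMP1, RMDN2 and PPM1A, with Pearson correlations from 0.998 to 0.9998 in log2 signal. With 6 arrays in 2 separate groups, such a value mainly says that a gene also differed between the groups with little spread inside them. ADI1, for example, read 3512, 3623 and 3686 with calactin and 1480, 1563 and 1506 without, a rise of 1.24 ± 0.06 (limma adjusted p = 4.07e-05).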

How the data were processed

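Per the labels' protocols, biotinylated cRNA was made from 8 ug of Trizol-extracted RNA and put on 1-colour Affymetrix arrays. The deposited values are linear intensity, 1 per probe set and array, as processed by the authors. How they were summarised, background-corrected and scaled is not given in the sources used here. Gene symbols came from the platform annotation, in which 41091 probe sets carry 1 symbol, 1801 several and 11721 none, and 62 controls were left out.

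Intensities became log2(intensity + 16), with no further scaling or filter. limma 3.58.1 in R 4.3.3 (lmFit, eBayes with a variance trend) compared 3 calactin with 3 untreated arrays over all 54613 probe sets, and over 19775 genes for the lists. Array number limits the precision. p-values measure the spread between the labels' biological replicates. No detection calls were used.

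Named were every family probe set, up to 4 called genes of each list with the smallest p, and the 5 genes most like the family probe set of smallest p. Members, lists and tests were chosen with earlier results of these data known. Over 27305 probe sets above the median signal, deviations from group means correlated at 0.415, 0.325 and 0.240 within replicate numbers 1, 2 and 3 of the titles. The numbers were therefore taken as pairing the arrays. The main fit left this pairing out, and called 2011 probe sets higher and 5600 lower. A block for the numbers is an alternative, and called 2864 higher and 7044 lower. The other alternatives were quantile normalization, median centring, scaling to hybridisation spikes or, with the block, poly-A spikes, pseudocounts of 1 and 64, a signal filter, eBayes variants, other choices of probe set per gene and each array left out. Replicates 1 and 2 alone were added after seeing the data. The fit was tested on simulated data with independent noise for each probe set and array. Those data held neither the pairing of replicates nor a gap in scale between groups, so the test does not bear on either. Plots used matplotlib 3.10.9.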

Additional observations from a re-analysis of the deposited data

How the results depend on the processing

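Over the 18 alternatives, the REL probe sets 235242_at and 206036_s_at and NFKBIE were called in each in which they were tested. A value is called reversed here only where it was called on 1 side of 0. Family probe sets called higher numbered 5 on the deposited scale, 9 under poly-A spike scaling with the replicate block, 2 in replicates 1 and 2 alone and 1 with 1 probe set per gene, which leaves 9 to test. They were 5 with any array left out. Those called lower numbered 4, and 2 under quantile normalization, hybridisation spike scaling and poly-A spike scaling with the block, 1 in replicates 1 and 2 alone, and 2 to 4 with 1 array left out. RELA 201783_s_at reversed under poly-A spike scaling with the block, at 0.51. With the replicate block they were 6 and 5, which changed the calls of NFKB1 and NFKBIA 201502_s_at alone in the family.

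Over the whole table, 2011 probe sets were higher and 5600 lower. Quantile normalization gave 3382 higher, hybridisation spike scaling 1238 and 2384, poly-A spike scaling with the block 11858 and 1379, replicates 1 and 2 alone 340 and 1279, and 1 probe set per gene 984 and 3285. With 1 array left out the counts ran from 1222 to 1949 and from 3640 to 4832. Pathway genes were 9 higher and 34 lower, and 49 and 16 under poly-A spike scaling with the block, 21 lower under hybridisation spike scaling, and 5 and 20 in replicates 1 and 2 alone. Unequal pairs of the family were 3, and 0 under poly-A spike scaling with the block, with a pseudocount of 1 and in replicates 1 and 2 alone, 1 with the replicate block alone or with probe sets above the median signal only, where fewer pairs could be tested, and 0 to 2 with 1 array left out. Among named pathway genes, poly-A spike scaling with the block reversed TAB3 (0.046), MAP3K7 (0.14) and PRMT5 (0.085), and preferring probe sets of unshared sequence reversed ITCH (-1.23) and TRAF3IP2 (0.37). Except where fewer probe sets or arrays entered, the cause was not tested. Signals near those of REL 206035_at, RELB and NFKBIA 231699_at limit what can be read from them, because the pseudocount of 16 compresses their changes.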

Other observations

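Textbook target genes of NF-kB were also set beside the kappa-B letters of their promoters. Of 25 target genes that were measured and had a RefSeq window, 14 had a match, and 4 of these were called lower and 2 higher, with a median log2 change of -0.15. Over all genes 16.6% were called lower and 4.98% higher, and 13.3% of genes with a window had a match. Of the 11 without a match, 3 were called lower and 1 higher, with a median of -0.16. CXCL2, CXCL3, GADD45B, a stress-response gene, and CFLAR, an inhibitor of death receptor signalling, fell and had a match, as did IL6 and TNFAIP3, which rose. CXCL8, which fell by 3.66, had no match to this consensus in its window of 300 bases. By their endings, the probe sets read for CXCL8, CXCL2, CFLAR, GADD45B and TNFAIP3 carry sequence shared between transcripts. Only the strict consensus was sought, so a site departing from it in any letter counts as no match. A gene without a match may therefore still have a kappa-B site in its window. Sequence further upstream was not searched, and no difference between these groups of genes was tested.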
